A study of Homo sapiens with 4 samples.

Results

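The mir-28 family is a small group of microRNAs (miRNAs, short noncoding RNAs that guide the silencing of messenger RNAs) made from the precursors of miR-28, miR-708 and miR-151. Its 7 mature miRNAs, hsa-miR-28-5p, hsa-miR-28-3p, hsa-miR-708-5p, hsa-miR-708-3p, hsa-miR-151a-5p, hsa-miR-151a-3p and hsa-miR-151b, were taken by name from the 2656 mature miRNAs counted in cortical interneurons that had been grown from the human embryonic stem cell line H1. The family was selected on the difference of miR-151a-5p and miR-151b between ethanol-exposed and unexposed cells, so the values of that contrast are given as a description, and any P call of a member in it restates the choice. Small RNA libraries came from 2 cultures kept for 7 days in maturation medium with about 50 to 100 mM ethanol and 2 cultures kept for 7 days without it, all from 1 stem cell line, and the exposed cultures were collected after a further day without ethanol. Nothing in the sources states whether the duplicate cultures came from separate differentiations. The P values for exposure below therefore set group differences against a spread between libraries that may be technical.

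A miRNA precursor is a hairpin cut by Drosha and Dicer into a duplex of a 5p strand and a 3p strand. One strand is loaded into an Argonaute protein and the other is usually degraded, and which of them is kept depends on the ends of the duplex and differs between miRNAs. The mir-28 family derives from LINE-2 repeats, and its precursors sit in introns of protein-coding genes. miR-28-5p and miR-708-5p are known to share their seed, the bases near the 5′ end that choose the target, while miR-151b is known as a shorter form of the first part of miR-151a-5p. miR-708 is known to be transcribed with its host gene during endoplasmic reticulum stress through the factor CHOP.

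Sequences from RefSeq (GRCh38.p14) were compared for 3 of the 7 members only. These are both arms of miR-708 and the arm of miR-28 that carried most counts. The other members were not compared by sequence. The seed, bases 2 to 8, is in capitals and each strand is written 5′ to 3′.
hsa-miR-28-3p: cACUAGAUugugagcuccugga
hsa-miR-708-3p: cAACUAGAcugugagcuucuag
hsa-miR-708-5p: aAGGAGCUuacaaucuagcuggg

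The 3 seeds differ. The 3p arms of miR-28 and miR-708 are both 22 bases long and share the run UGUGAGCU, which starts at base 9 of miR-28-3p and base 10 of miR-708-3p. Near their 5′ ends they share ACUAGA, starting at base 2 of miR-28-3p and base 3 of miR-708-3p, so that their seeds are shifted by 1 base against each other. miR-708-5p, at 23 bases, has the seed AGGAGCU. Among the other mature miRNAs whose sequences were compared, which did not include miR-28-5p, only miR-3139 had that seed. With 5 and 8 counts after exposure and 2 and 4 without it, miR-3139 was too rare to be tested.

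Library totals ran from 12100425 to 24858230 counts, and both exposed libraries were deeper than both unexposed libraries, so depth and exposure cannot be told apart. The limit that a count of 0 allows, 3 counts, was at most 0.248 when scaled to a library of 1000000 counts (CPM), and the rarest member had 181 counts in a library. Markers of neurons stood at a summed level of 208367 to 286347 CPM, with 4 of 5 listed names used here and all 4 counted in every library. They contributed unevenly, with a mean log2 CPM of 17.5 for miR-9-5p, 15.4 for miR-128-3p, 11.7 for miR-124-3p and 5.77 for miR-138-5p. Stem cell markers (the 3p arms of miR-302a to miR-302d and of miR-367) summed to between 1.59 and 3.26 CPM with 1 of 5 at 0 throughout, and their 5 other arms, mostly miR-302a-5p, to between 2.10 and 5.36 CPM. Blood markers (miR-451a, miR-144-3p and miR-223-3p) came to at most 0.698 CPM with 1 of 3 at 0 throughout. Outside that list, miR-144-5p had a mean log2 CPM of 0.06 and miR-486-5p one of 8.53. The listed names alone therefore do not show that RNA of blood cells was low. The glial markers miR-219a-5p and miR-338-3p summed to at most 3.85 CPM, but the 3 other arms of the same names were far higher, with miR-338-5p at 179 to 213 CPM, miR-219a-1-3p at 118 to 284 CPM and miR-219a-2-3p at 71.8 to 113 CPM. The sum over the listed names therefore does not show that glial RNA was low. The 4 mesenchymal markers summed to 56.9 to 88.7 CPM and the endothelial marker miR-126-3p stood at 801 to 1012 CPM. Of the mesenchymal sum, most came from miR-143-3p, with a mean log2 CPM of 6.13. That mean was 0.35 for miR-199a-5p and -0.09 for miR-214-3p, and miR-145-5p was too rare to be tested. Of the 4 neuronal markers tested, miR-124-3p differed with an unadjusted P of 0.0316 (edgeR's quasi-likelihood test, adjusted p = 0.922). It was at 5405 and 3362 CPM with ethanol, against 2947 and 2190 CPM without it. The log2 fold change was -0.23 for miR-9-5p, 0.31 for miR-128-3p and 0.26 for miR-138-5p, and the summed level overlapped between groups. The part of these markers in the values of the family was not tested. In bulk RNA, fewer cells of a type and less RNA per cell cannot be told apart.

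The family took 1.61% and 1.16% of the counts after exposure, against 0.843% and 1.57% in unexposed cells, so the groups overlapped. One strand, miR-151a-3p, made up 74.0% to 80.5% of the family's counts in each library. Levels below are in CPM scaled by the trimmed mean of M values (TMM). Each read covers a whole mature strand of about the same length, so levels were not divided by length, but ligation of adapters differs between sequences and affects comparisons between strands.

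By mean level over the 4 libraries the order was miR-151a-3p (9711 CPM), miR-28-3p (1024 CPM), miR-708-5p (869 CPM), miR-151a-5p (440.4 CPM), miR-708-3p (440.3 CPM), miR-28-5p (134 CPM) and miR-151b (58.2 CPM). The ranges over libraries overlapped between miR-28-3p and miR-708-5p, between miR-708-5p and miR-151a-5p, and between miR-151a-5p and miR-708-3p. Ranges alone therefore do not order these neighbours. Within libraries, however, miR-708-5p lay above miR-151a-5p in 4 of 4, while miR-28-3p lay above miR-708-5p in 3 of 4 and miR-151a-5p above miR-708-3p in 2 of 4. miR-151a-3p lay above every other member in each library, and miR-28-5p lay above miR-151b in each library.

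**Figure D1:**
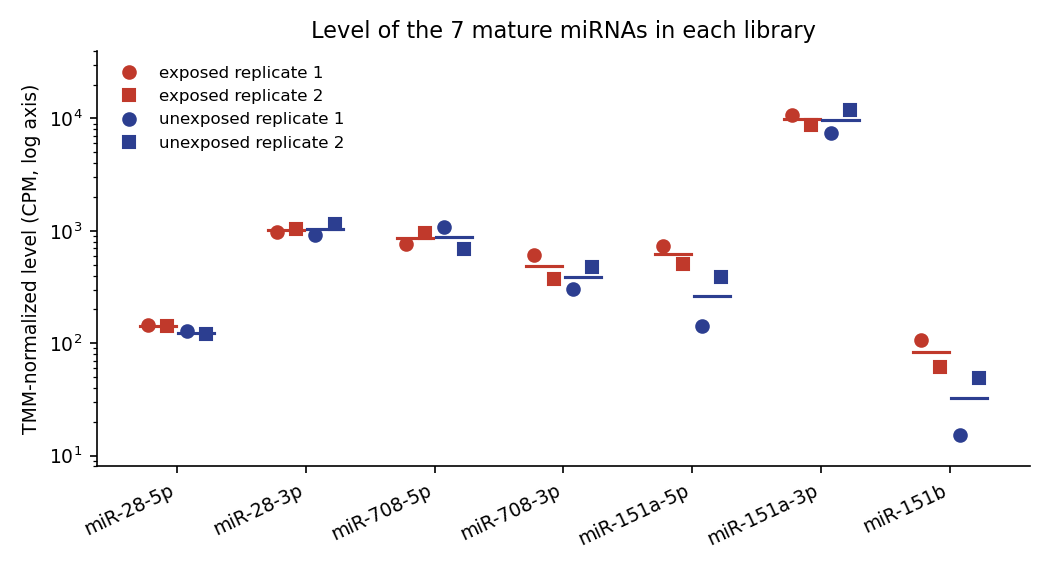
TMM-normalized level (CPM, log axis) of the 7 mature miRNAs in the exposed (red) and unexposed (blue) libraries; points are libraries and bars group means (n = 2). miR-151a-5p and miR-151b were lowest in unexposed replicate 1, at 141 and 15.3 CPM, while the points of miR-151a-3p mix the groups.

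miR-28 comes from MIR28 on chromosome 3 (188688781 to 188688866, plus strand, GRCh38, GENCODE 29), in an intron of LPP on the same strand. miR-28-5p, its less counted arm, was at 144.1 and 143.2 CPM after exposure, against 127 and 120 CPM in unexposed cells. The replicates lay close together and the groups did not overlap, and the log2 fold change of exposed over unexposed cells was 0.22 (standard error 0.22), with 0.11 under upper quartile scaling, 0.37 with library size only and 0.14 without unexposed replicate 2. miR-28-3p was at 974 and 1046 CPM in exposed cells, against 920 and 1157 CPM in unexposed cells. Here both exposed values lay between the unexposed ones, and the log2 difference of -0.04 (standard error 0.22) had a sign that changed with the scaling.

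miR-708 comes from MIR708 on chromosome 11 (79402022 to 79402109, minus strand), in an intron of TENM4 on the same strand. miR-708-5p was at 761 and 955 CPM with ethanol, against 1073 and 685 CPM without it. The highest and the lowest level both belonged to unexposed cells, and the log2 fold change was -0.03 (standard error 0.27), again with a sign that changed with the scaling. It was -0.36 without unexposed replicate 2 and 0.32 without unexposed replicate 1. miR-708-3p was at 609 and 370 CPM after exposure, against 305 and 478 CPM in unexposed cells. The groups overlapped, the log2 difference being 0.32 (standard error 0.32). It was -0.09 without exposed replicate 1 and 0.65 without exposed replicate 2.

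Both arms of miR-708 varied more between replicates than the median miRNA of at least 100 CPM. For miR-708-3p the replicates differed 1.65-fold in exposed and 1.56-fold in unexposed cells, and for miR-708-5p they differed 1.25-fold and 1.57-fold. The median over the 163 tested miRNAs with a mean of at least 100 CPM was 1.14-fold in exposed and 1.27-fold in unexposed cells. The arms moved in opposite directions between replicates, since the library with more miR-708-3p in each group had less miR-708-5p.

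miR-151a comes from MIR151A in an intron of PTK2, the gene of focal adhesion kinase, on chromosome 8 (140732564 to 140732653, minus strand). miR-151b is annotated to MIR151B on chromosome 14 (100109419 to 100109514, minus strand), within an intron of EVL, which runs on the opposite strand. miR-151a-3p, the dominant strand, was at 10829 and 8775 CPM in exposed cells, against 7376 and 11862 CPM in unexposed cells. The unexposed cells held both its highest and its lowest level, and the log2 fold change was 0.03 (standard error 0.29), between -0.09 with upper quartile scaling and 0.15 with library size only. It was -0.28 without unexposed replicate 1 and 0.37 without unexposed replicate 2.

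miR-151a-5p was at 728 and 505 CPM with ethanol, against 141 and 387 CPM without it. Both exposed cultures lay above both unexposed cultures, but the unexposed cultures differed 2.75-fold between themselves and the exposed cultures 1.44-fold. Its log2 fold change was 1.22 (standard error 0.44), which without unexposed replicate 1 was 0.67 and without unexposed replicate 2 was 2.09. miR-151b followed the same order, at 107 and 60.9 CPM against 15.3 and 49.3 CPM, and its log2 fold change was 1.38 (standard error 0.52), or 0.77 and 2.41 without those libraries in turn.

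Reads of miR-151b and miR-151a-5p cannot be assigned with certainty to either locus, because of their shared sequence. There were 14.7 and 12.05 counts of miR-151b per 100 counts of miR-151a-5p after exposure, and 10.9 and 12.7 without it. As a share of both, miR-151b was 12.8% (95% Wilson interval 12.4 to 13.3%) in exposed replicate 1 and 9.83% (8.55 to 11.3%) in unexposed replicate 1. The groups overlapped, and the proportion varied far less than the level of either miRNA, which ranged 5.17-fold for miR-151a-5p and 6.99-fold for miR-151b over the 4 libraries. These 2 members do not count as separate measurements. Reads were counted without molecular identifiers, so the intervals reflect counting error alone.

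Of the 7 members, all of which passed the filter on low counts, 2 (miR-151a-5p and miR-151b) had an unadjusted P under 0.05 in edgeR's quasi-likelihood test, where 4.52% of the 863 tested miRNAs did. Both were also higher by more than 2-fold, and 1.27% of the tested miRNAs met that and the unadjusted P together. The values of exposed and unexposed libraries did not overlap for 3 members (these 2 and miR-28-5p), against 33.4% of the tested miRNAs. No member and none of the 863 miRNAs (0, with 39 at an unadjusted P under 0.05) had an adjusted p under 0.05 in edgeR, and limma-voom and DESeq2 also gave 0, with 31 and 28 at an unadjusted P under 0.05. The count in edgeR was 6 when rare miRNAs were kept and 1, 5, 18 and 15 without exposed replicate 1, exposed replicate 2, unexposed replicate 1 and unexposed replicate 2. miR-151a-5p and miR-151b were in that count when rare miRNAs were kept, without exposed replicate 2 and without unexposed replicate 2. The members were chosen with this contrast known, and nothing is read from these counts.

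**Figure D2:**
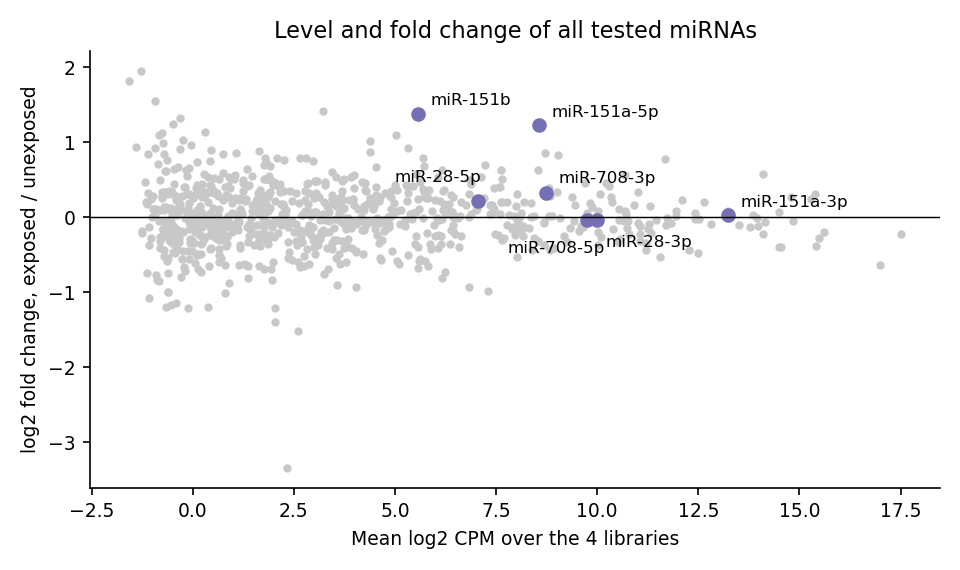
Log2 fold change of exposed over unexposed cells against the mean log2 CPM of the 863 tested miRNAs (grey) with the 7 members marked in purple. miR-151a-5p (1.22) and miR-151b (1.38) lie apart from the other 5 members, which lie between -0.04 and 0.32.

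Arm balance was taken as the log2 ratio of 5p to 3p counts within a library, which does not depend on library scaling. In miR-28 the 3p arm prevailed: the 5p share of both arms was 12.9% (95% Wilson interval 12.5 to 13.3%) and 12.04% (11.7 to 12.4%) with ethanol, against 12.1% (11.6 to 12.7%) and 9.40% (8.96 to 9.85%) without it. In miR-708 the 5p arm prevailed, with a share of 55.6% (55.0 to 56.1%) and 72.1% (71.6 to 72.6%) with ethanol, against 77.9% (77.2 to 78.5%) and 58.9% (58.1 to 59.7%) without it. In miR-151a the 5p arm was the rare one, with a share of 6.30% (6.21 to 6.39%) and 5.45% (5.35 to 5.54%) with ethanol, against 1.87% (1.79 to 1.96%) and 3.16% (3.07 to 3.25%) without it.

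The favoured arm was the same in 4 of 4 libraries for each of the 3 precursors. The mean log2 ratio over the libraries was -2.94 ± 0.23 (SD, n = 4) for miR-28, 1.01 ± 0.70 (SD, n = 4) for miR-708 and -4.67 ± 0.83 (SD, n = 4) for miR-151a. For each the two-sided exact permutation test of the paired arms gave a p of 0.125 (adjusted over the 3 precursors 0.125), the smallest that 4 libraries allow, so this design cannot pass 0.05. Of the 195 precursors with both arms tested, 86 had more 3p than 5p counts in every library, as did miR-28 and miR-151a, and 93 had more 5p, as did miR-708. A mean ratio lower than that of miR-151a was found for 24 of the 195.

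Between precursors the ratios differed in the same direction in 4 of 4 libraries for each of the 3 pairs compared. The ratio of miR-708 exceeded that of miR-151a by 5.67 ± 1.37 (SD, n = 4) on the log2 scale, and that of miR-28 exceeded that of miR-151a by 1.73 ± 0.79 (SD, n = 4). The ratio of miR-28 minus that of miR-708 was -3.94 ± 0.68 (SD, n = 4). Each pair had a two-sided exact permutation p of 0.125 (adjusted over the 3 pairs 0.125), again the smallest possible.

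**Figure D3:**
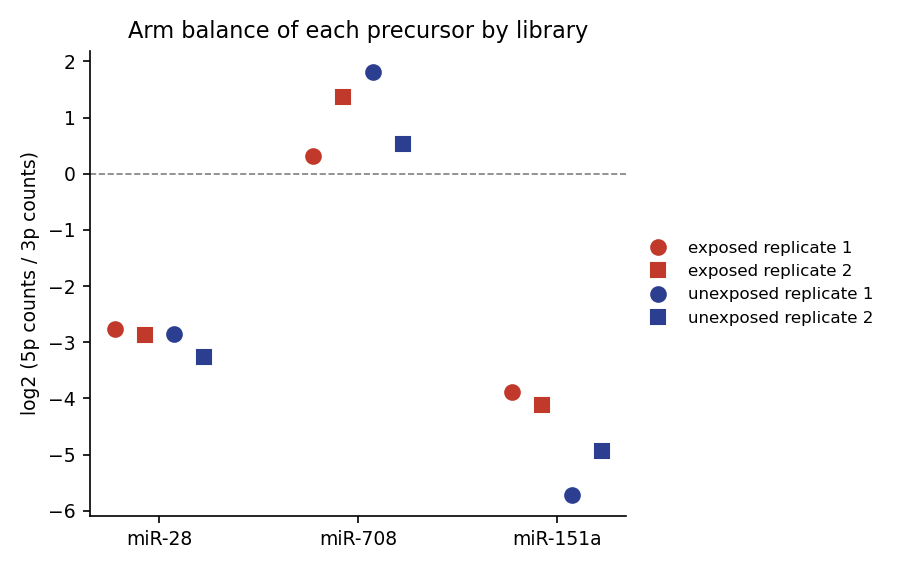
Log2 ratio of 5p to 3p counts of miR-28, miR-708 and miR-151a in each library (red exposed, blue unexposed); the dashed line marks equal counts. miR-708 lies above the line and the others below it, and only in miR-151a do the exposed libraries (-3.89 and -4.12) and the unexposed libraries (-5.71 and -4.94) not overlap.

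With exposure the log2 ratio of miR-151a differed by 1.32 (standard error 0.33), from a mean of -5.32 in unexposed to -4.01 in exposed cells, so that there were 14.9 and 17.4 counts of the 3p arm for each of the 5p arm with ethanol and 52.4 and 30.6 without it. Leaving out 1 library at a time gave 0.93 to 1.70, the lowest without unexposed replicate 1. Counting miR-151b with miR-151a-5p gave 1.34. The difference was 0.25 (standard error 0.28) for miR-28 and -0.32 (standard error 0.51) for miR-708, and in both the groups overlapped. For miR-28 it ranged from 0.04 without unexposed replicate 2 to 0.46 without unexposed replicate 1. For miR-708 it turned to 0.20 without exposed replicate 1 and to 0.33 without unexposed replicate 1.

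In limma's fit over all 195 precursors, 4 had an unadjusted P under 0.05, which is 2.05%. Among them was 1 of the 3 precursors of the family, miR-151a. The ratio of miR-151a contains miR-151a-5p, on whose difference with exposure the family was selected. The calls, overlap and rank of miR-151a given here therefore restate that choice. None (0) had an adjusted p under 0.05, the lowest in limma being 0.935, but 1 (miR-151a) had one without unexposed replicate 2 and with a block that paired exposed replicate 1 with unexposed replicate 2, chosen after the data were seen. Without exposed replicate 1 no precursor (0 of 189) had an unadjusted P under 0.05, miR-151a included. The groups did not overlap for 1 of the 3 precursors, again miR-151a, against 29.7% of the 195. By size, the change of miR-151a ranked second of 195. The quartiles over all precursors were -0.31 and 0.20 with a median of -0.09, and miR-28 and miR-708 ranked 99 and 75 by size.

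**Figure D4:**
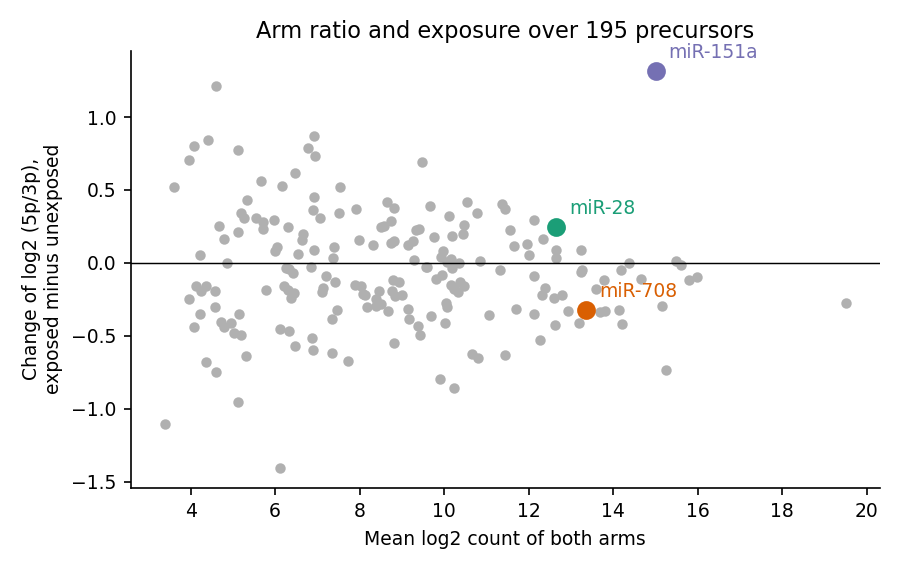
Change of the log2 ratio of 5p to 3p counts, exposed minus unexposed, against the mean log2 count of both arms for 195 precursors (grey), with the 3 precursors of the family in colour. miR-151a is the highest point, at 1.32, and miR-28 (0.25) and miR-708 (-0.32) lie among the rest.

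The ratios of the family also differed between libraries of the same group. The range over the 4 libraries was 0.51 for miR-28, 1.49 for miR-708 and 1.82 for miR-151a on the log2 scale, against a median of 0.79 over all precursors; 21 of 195 had a range at least as wide as miR-708 and 7 as wide as miR-151a. Centred on each precursor's own mean, the median log2 ratio of all 195 was -0.13 in exposed replicate 1, 0.02 in exposed replicate 2, 0.11 in unexposed replicate 1 and -0.02 in unexposed replicate 2. miR-708 had its lowest ratio in exposed replicate 1 and its highest in unexposed replicate 1, an order shown by 36 of the 195 with miR-708 counted (18.5%). miR-151a had the opposite order, highest in exposed replicate 1 and lowest in unexposed replicate 1, as had 14 of 195 (7.18%) with itself counted. The part of these library differences in the values of the family was not tested.

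Likeness to miR-151a-5p was measured as the root mean square difference of log2 CPM profiles over the 4 libraries, each centred on its mean, among 375 other miRNAs with a mean of at least 10 CPM. miR-151b was nearest (0.16). The nearest miRNAs outside the family were miR-486-3p (0.31), miR-3605-3p (0.34), miR-204-3p (0.40), miR-485-3p (0.44) and miR-92b-3p (0.45). All of them were lowest in unexposed replicate 1, as was miR-151a-5p, which a choice by likeness to its profile favours. miR-486-3p, for example, was at 60.2 and 52.8 CPM after exposure, against 21.0 and 38.6 CPM in unexposed cells, and its counts may come from either of overlapping gene copies. The other arm of its own precursor, miR-151a-3p, came only in place 46 (0.72), and miR-708-3p in place 22 (0.61). miR-708-5p, in place 318 of 375 (1.06), was the member least like miR-151a-5p.

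The further miRNAs listed as derived from LINE-2 repeats were miR-95-5p, miR-95-3p and miR-325. Of these 1 of 3 passed the filter and 0 of 1 passed an unadjusted P of 0.05 in edgeR. miR-95-3p was at 1696 and 2257 CPM in exposed cells, against 2561 and 2046 CPM in unexposed cells. The groups overlapped, and the log2 fold change was -0.22 (standard error 0.25, adjusted p = 0.940 in edgeR). Its partner miR-95-5p had between 2 and 4 counts per library, and miR-325 was listed at 0 in all 4 libraries.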

How the data were processed

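The deposited values are raw counts of reads per mature miRNA, which the authors obtained by running CAP-miRseq on NEBNext small RNA libraries. The submitters' processing notes name the build hg19; the version and annotation release are not given in the sources used here. Groups and replicate numbers came from the sample labels. Members and lists were chosen with earlier results of these data known. Exposed and unexposed libraries were compared with edgeR 4.0.16 in R 4.3.3 (filterByExpr with a minimum count of 10 and total of 15, TMM, quasi-likelihood test, Benjamini-Hochberg adjustment over all tested miRNAs), with standard errors from the F statistic. The log2 ratio of 5p to 3p counts, with 0.5 added to each, was fitted with limma 3.58.1 (eBayes with a trend on mean count) for all names with both arms past the filter. Paired exact permutation tests used scipy 1.17.1. Alternatives included limma-voom, DESeq2 1.42.0, other scalings, filters and pseudocounts, a block for the replicate number, and omission of 1 library at a time. Loci came from GENCODE 29 (GRCh38) by name, since the counts carry no coordinates.

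Besides the members, the miRNAs named were those of the LINE-2 and marker lists, the 5 nearest to miR-151a-5p with a mean of at least 10 CPM, and the 5 precursors with the largest change of arm ratio among those with at least 50 counts of each arm in every library. miR-3139, miR-124-3p, miR-144-5p, miR-486-5p and the other arms of the stem cell and glial markers were singled out after their values were seen. The neuronal marker miR-137 was listed without an arm and matched no counted name, so it is not used here, although miR-137-3p and miR-137-5p were counted. Replicates were compared before averaging: a chi-square statistic per degree of freedom was 795 between the exposed and 712 between the unexposed libraries, so no library was treated as a repeat.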

Additional observations from a re-analysis of the deposited data

How the results depend on the processing

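Under the 9 alternatives of scaling, filter, test and block, 2 members (miR-151a-5p and miR-151b) had an unadjusted P under 0.05, and with 1 library left out in turn 2 or 3 members, the third being miR-708-3p without unexposed replicate 2. The family was selected on these 2 members in the same libraries, so such calls restate the choice and do not show stability. The log2 fold change of miR-151a-5p was 1.10 to 1.38 and that of miR-151b 1.25 to 1.55 under those 9. Library size only moved the median over all miRNAs to 0.14 and upper quartile scaling to -0.12; the signs of miR-28-3p, miR-708-5p and miR-151a-3p changed with these. Over all miRNAs the count with an unadjusted P under 0.05, 39, was 94 when rare miRNAs were kept, 25 with a replicate block, 59 with the crossed replicate block and 12 to 109 with 1 library left out. The count also past a 2-fold change, 20, was 49 when rare miRNAs were kept, 11 where each library had to hold at least 10 counts, 10 with DESeq2 and 10 to 44 with 1 library left out. For arm ratios the count, 4, was 10 where each arm needed only 1 count per library, 8 with the crossed block and 0 to 18 with 1 library left out, and the change of miR-708 was then -0.97 to 0.33. In fits without 1 library the lone library is assumed to vary like the other group. Same-numbered libraries did not pair (correlation of their replicate differences -0.186 across miRNAs), and the crossed block was chosen after the data were seen. The arm ratios within and between precursors kept their direction under every alternative run for them. Omission of 1 library could not have reversed them, since all 4 libraries had the same sign, so this does not show stability. The cause of these shifts was not tested.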

Other observations

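Among the 95 precursors with at least 50 counts of each arm in every library, 4 followed miR-151a in the size of the change of arm ratio, and each had a lower mean ratio in exposed cells. The log2 ratio of 5p to 3p counts of miR-671 was -2.75 and -2.37 with ethanol and -1.68 and -1.86 without it, a change of -0.80 (standard error 0.30). For miR-92b it was -6.40 and -6.22 against -5.40 and -5.75, a change of -0.73 (standard error 0.27). In miR-185, where the 5p arm prevailed, the ratios were 4.82 and 5.30 against 5.76 and 5.62, a change of -0.63 (standard error 0.29). In these 3 the groups did not overlap. In miR-204 they did, with 5.77 and 6.67 against 7.43 and 6.27, a change of -0.63 (standard error 0.48). These were picked for their size, and no test is given.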
